A study of Mus musculus with 9 samples.

Results

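Kainate and delta glutamate receptor genes were followed through the neurons and glia of the mouse cortex and hippocampus in single-nucleus RNA sequencing (snRNA-seq) of 9 brains. The 6 genes were taken by symbol from the 31053 genes listed in the count matrices: Grik1, Grik2, Grik3, Grik4 and Grik5, which encode the 5 kainate receptor subunits, and Grid1, which encodes a delta receptor. All 6 were listed and had UMIs (unique molecular identifiers, the tags that count single RNA molecules). The samples were pooled cortex and hippocampus of male C57BL/6 mice, 1 library per mouse and 3 mice per group. Young AAV-EGFP mice (5 months) and aged AAV-EGFP mice (19 months) received an adeno-associated virus that carries the marker protein EGFP. Aged AAV-B3GNT3 mice (19 months) received a virus that carries EGFP together with B3GNT3, a glycosyltransferase of the mucin-type O-glycan pathway. In all 3 groups the virus was the PHP.V1 capsid with a shortened CLDN5 promoter, chosen to restrict expression to brain endothelial cells, and it was given 8 weeks before the tissue was taken. The promoter was not meant for neurons or glia, and no group without virus was sampled, so every difference in age is one between virus-treated mice. Per the paper, aged mice came from the National Institute on Aging and young mice from Jackson Laboratories. Supplier and age can therefore not be told apart.

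Glutamate opens a group of cation channels built from 4 subunits each, and kainate receptors are one family of them. The subunits GluK1, GluK2 and GluK3 (Grik1, Grik2 and Grik3) can form channels by themselves, whereas GluK4 and GluK5 (Grik4 and Grik5) bind agonists tightly but need one of the first 3 to form a working receptor. Kainate receptors sit on both sides of synapses, where they set transmitter release from interneurons and mossy fibres and carry slow currents, and CA3 pyramidal neurons are a classical site of GluK2 with GluK4 and GluK5. The delta receptor GluD1 (Grid1) does not open with glutamate in the usual way. It acts mainly as a synaptic organizer that is bridged by secreted cerebellins to neurexins on the axon.

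The genes lie on 6 chromosomes and are large, and their coordinates are those of GENCODE vM21 on GRCm38. Grik1 (ENSMUSG00000022935) spans 394 kb at chr16:87895900-88290265 on the minus strand. Grik2 (ENSMUSG00000056073) spans 694 kb at chr10:49094833-49788766 on the minus strand. Grik3 (ENSMUSG00000001985) spans 223 kb at chr4:125490700-125714173 on the plus strand. Grik4 (ENSMUSG00000032017) spans 426 kb at chr9:42518135-42944493 on the minus strand. Grik5 (ENSMUSG00000003378) is the shortest, with 62.5 kb at chr7:25009849-25072346 on the minus strand, and Grid1 (ENSMUSG00000041078) is the longest, with 763 kb at chr14:34820108-35583379 on the plus strand. Exons make up between 0.781% of the span (Grid1) and 8.27% (Grik5). Other annotated genes lie within Grik2, Grik3, Grik4 and Grid1, but none of these was counted separately in the matrices.

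The 9 libraries held 47332047 to 79964605 UMIs each. After filters on genes, mitochondrial UMIs and doublets, 70302 of 77823 barcodes were kept, 5769 to 9274 per mouse, with median depths of 2972 to 5324 UMIs per nucleus. The lowest medians were among the aged AAV-B3GNT3 libraries (2972 to 4296, against 4069 to 4621 in aged AAV-EGFP mice). Of 77081 distinct barcodes, 734 occurred in more than 1 library, at 7 to 37 per pair of libraries. The mouse gene B3gnt3 gave 0 UMIs in the brain endothelial cells of the 3 aged AAV-EGFP mice, 0, 2 and 4 in the aged AAV-B3GNT3 mice and 7, 3 and 1 in the young mice, too few to check the labels. Whether transcripts of the virus are counted under that gene is not known. Nuclei were clustered without the 6 receptor genes and their partner genes, and clusters were named from fixed markers, so that each name stands for nuclei like that type. The classes were excitatory neurons (19125 nuclei), inhibitory neurons (8077), astrocytes (8429), oligodendrocytes (20360), oligodendrocyte precursors (2660), microglia (1924), brain endothelial cells (764) and pericytes (953). In these 8 classes every marker was highest in its own class, apart from Rgs5 of the pericyte list. At a finer resolution (1.0), 2373 nuclei were named oligodendrocyte precursors and 287 newly forming oligodendrocytes, 119 of the latter from young mouse 2. In nuclei per mouse the precursor class matches these 2 clusters together, so its levels are those of a mixed class. A second clustering of the neurons gave 16 types with 10 or more nuclei in every mouse. Among them were 2398 direct-pathway and 1662 indirect-pathway striatal neurons, which the labels for cortex and hippocampus do not name, and of which 2016 and 1658 lay in the inhibitory class.

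The 3 kainate subunit genes that form channels alone had different but overlapping profiles among the neurons. Levels are given as CPM (the UMIs of a gene per 1000000 UMIs summed over all nuclei of that type in 1 mouse), as the mean with its SD over the 9 mice. They are a description, since types were defined on the same nuclei. Types that did not differ beyond their spread had a gap between means within their pooled SD over the 9 mice of all 3 groups. That rule ignores that both types come from the same mice, so a steady difference within each mouse can be missed. Grik1 was highest in Sst interneurons (1873 ± 284 CPM, n = 9) and Lamp5 interneurons (1814 ± 237), which did not differ beyond their spread. Near-projecting neurons of the deep cortex followed (1198 ± 218), then Pvalb (885 ± 169) and Vip interneurons (831 ± 208). In those 5 types the lowest mouse had 493 CPM and the highest of any other type 489.7 CPM, in oligodendrocyte precursors (435 ± 42.3). CA2 or CA3 neurons were lowest (4.17 ± 3.38), with at least 1 mouse at 0 UMIs, and the ratio of the highest to the lowest mean was 449. Deep intratelencephalic (11.5 ± 3.66), layer 6 corticothalamic (9.79 ± 4.12), indirect-pathway striatal (9.09 ± 5.20) and CA1 neurons (8.97 ± 7.88) were also near the bottom.

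Grik2 was the broadest of the 3. It was highest in Lamp5 interneurons (3823 ± 659 CPM), followed by Vip (3151 ± 511) and Sst interneurons (2530.1 ± 344), and by direct-pathway striatal neurons (2355 ± 445) and dentate granule neurons (2082 ± 316). Of the last 3, each did not differ from the next beyond their spread. Layer 6b neurons were lowest among neurons (553 ± 60.8 CPM) and pericytes lowest of all (370.3 ± 164), so the top mean was 10.3 times the bottom one. CA2 or CA3 neurons had 1226 ± 249 CPM, close to oligodendrocyte precursors (1263 ± 181) and oligodendrocytes (1196 ± 214).

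Grik3 was highest in the deepest cortical layers. Its mean was 647 ± 118 CPM in layer 6b neurons, 554 ± 84.5 in near-projecting neurons, 499 ± 87.4 in layer 6 corticothalamic neurons and 441 ± 68.5 in Sst interneurons, each within the spread of the next. Indirect-pathway striatal neurons had 385 ± 72.9 CPM, the lowest mouse at 294, while direct-pathway striatal neurons had 46.9 ± 30.3, the highest mouse at 90.2. The 2 striatal types therefore did not overlap in Grik3. Upper-layer cortical neurons (33.1 ± 18.1), CA1 (12.3 ± 9.88) and CA2 or CA3 neurons (9.48 ± 5.76) were low, and Lamp5 interneurons were lowest (4.01 ± 3.84), 161 times below layer 6b. Lamp5 and Sst interneurons thus shared a high Grik1 level but lay at opposite ends for Grik3.

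The high-affinity partners differed from each other. Grik4 was concentrated in CA2 or CA3 neurons, at 1516 ± 254 CPM with every mouse between 962 and 1736. No mouse of any other type was above 656 CPM, and dentate granule neurons (452 ± 131), oligodendrocyte precursors (447 ± 59.5) and layer 6b neurons (435 ± 33.1) came next without differing beyond their spread. Indirect-pathway striatal neurons were the lowest neurons (41.8 ± 22.5). Grik5 had the flattest profile of the 6, from 218 ± 45.7 CPM in indirect-pathway striatal neurons, 206 ± 38.0 in CA2 or CA3 neurons and 197 ± 32.7 in deep intratelencephalic neurons to 32.5 ± 11.5 in brain endothelial cells, a ratio of 6.70. Pvalb interneurons were lowest among the neuron types (77.1 ± 17.2).

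The highest mean of Grid1 lay outside the neurons. Oligodendrocyte precursors had 1234 ± 106 CPM and near-projecting neurons 1172 ± 68.2, which did not differ beyond their spread. Direct-pathway (958 ± 97.3) and indirect-pathway striatal neurons (888 ± 64.4) and Vip interneurons (882 ± 54.0) followed. Every neuron type had at least 325 CPM in every mouse, and Pvalb interneurons were lowest (401 ± 55.3). Astrocytes had 469 ± 52.8 CPM, whereas mature oligodendrocytes, at 94.8 ± 32.9 CPM, had the lowest mean of all types, 13.02 times below their precursors.

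**Figure D1:**
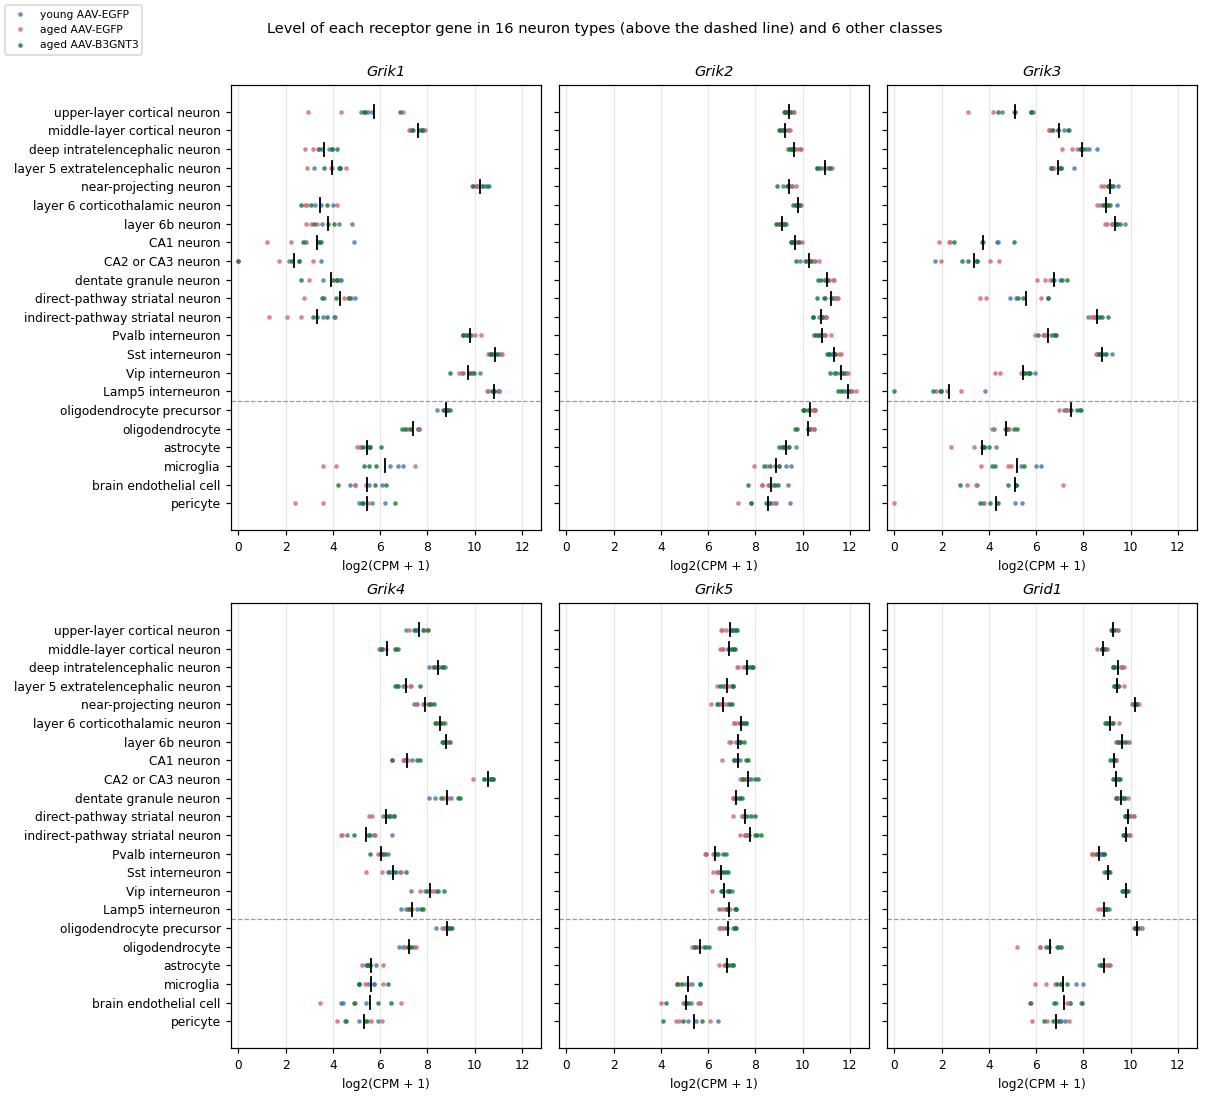
Level of the 6 receptor genes, as log2(CPM + 1), in 16 neuron types and 6 other classes; each point is 1 mouse, coloured by group, and the black bar is the mean CPM of the 9 mice on the same scale. Grik4 stands alone in CA2 or CA3 neurons (1516 CPM), Grik1 in 4 interneuron types and near-projecting neurons, and Grid1 falls from 1234 CPM in oligodendrocyte precursors to 94.8 CPM in oligodendrocytes.

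Between genes, levels were compared per kilobase of gene span, since nuclear RNA holds introns and the spans differ. Summed over the 5 kainate genes, Lamp5 interneurons (12.4 CPM per kb) and Sst interneurons (12.1) had the most, brain endothelial cells (1.47) and pericytes (1.48) the least. The mix differed by type on this scale. Grik4 made up 41.0% of the kainate sum in CA2 or CA3 neurons and Grik5 a further 38.0%, with 20.4% from Grik2. Grik3 led in layer 6b neurons (40.4%), Grik1 in Sst interneurons (39.4%) and near-projecting neurons (35.3%), and Grik2 in Lamp5 interneurons (44.5%), Vip interneurons (49.8%), direct-pathway striatal neurons (49.6%) and layer 5 extratelencephalic neurons (51.7%). Grik5 led in CA1 neurons (60.3%), upper-layer neurons (53.1%) and astrocytes (60.3%). Whether intronic reads were counted is not known, and the labels and the file headers name different Cell Ranger versions. If mostly exonic 3′ ends were counted, division by span would understate Grik1, Grik2, Grik3 and Grik4 against the short Grik5.

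Likeness between genes was described by Pearson's r of log2(mean CPM + 1) over the 22 types and classes, which share libraries and depth. Within the family the closest pair was Grik5 and Grid1 (r = 0.83), followed by Grik4 and Grik5 (0.53). Grik1 and Grik2 had r = 0.32 and Grik1 and Grik3 had 0.01. Over 13335 genes, the closest to Grik1 were Nxph1 (0.88), which encodes a neurexin ligand of interneurons, Gm12120 (0.86) and the potassium channel partner Kcnip1 (0.85). For Grik2 they were Gm26901 (0.81), Bend4 (0.80) and Ranbp17 (0.79), for Grik4 the ephrin receptor Ephb2 (0.79), Gpr85 (0.78) and Sez6l (0.76), for Grik5 the ceramide synthase Cers1 (0.91) and the calcium channel subunit Cacnb1 (0.90), and for Grid1 the adhesion molecule Cntn1 (0.91), Macrod2 (0.90) and 3110039M20Rik (0.89). The closest gene to Grik3 was Ftl1-ps1 (0.97), ahead of the cadherins Cdh18 (0.77) and Dsg2 (0.76). Ftl1-ps1 is a copy of the ferritin light chain gene on chromosome 13 (chr13:74399694-74407346) that reached 32.2 CPM in layer 6b neurons and 0.532 in Lamp5 interneurons. The Grik3 span holds the ferritin light chain pseudogene Ftl2-ps (chr4:125504288-125504839, on the strand of Grik3 and outside its exons), which was not counted as a gene. Whether reads of Ftl2-ps were given to Ftl1-ps1 was not tested.

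Neuronal genes also gave UMIs in the nuclei of other classes, and their level is given here beside that of the receptor genes. The sum of 7 neuronal genes (Snap25, Syt1, Rbfox3, Meg3, Slc17a7, Gad1 and Gad2) was 16.9% of its neuronal mean in oligodendrocytes, 15.02% in oligodendrocyte precursors, 11.8% in astrocytes, 24.2% in microglia, 20.1% in brain endothelial cells and 19.96% in pericytes. Single genes of that list reached from 5.63% to 68.5%. Against this, the receptor genes of oligodendrocyte precursors were at 77.1% (Grik2) to 258% (Grik4) of the mean of both neuron classes, with Grid1 at 185%, Grik3 at 102% and Grik1 at 102%. Astrocytes had 79.6% for Grik5 and 70.4% for Grid1, above the whole neuronal list, but 7.04% for Grik3 and 9.93% for Grik1. Oligodendrocytes had 73.0% for Grik2 and 84.5% for Grik4, but 14.2% for Grid1 and 14.8% for Grik3, under the summed list. Microglia had 17.2% to 28.2% for the 6 genes, around the 24.2% of the list, so that their own expression and neuronal RNA cannot be told apart.

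Ageing was tested first, as aged AAV-EGFP against young AAV-EGFP mice. Sums of counts per mouse were tested in 7 classes and 16 neuron types with edgeR's quasi-likelihood test, and a gene was called at a Benjamini-Hochberg adjusted p under 0.05 over all genes of the class or type. Differences are log2 fold changes with their standard errors (SE). The receptor genes gave 40 tests in classes and 93 in types. In brain endothelial cells Grik3 and Grik5, in CA2 or CA3 neurons Grik1 and Grik3, and in Lamp5 interneurons Grik3 had too few counts to be tested. Of the 40 class tests 4 were called, all lower with age, where 10% of all gene tests in these classes were called. The class count was thus at the share of genes in general. Of the 93 type tests 6 were called, all lower, where 3.91% of all tests were. Grik2 and Grik4 were not called in any of the 7 classes or 16 types, where 1 and 0 of their class tests and 2 and 0 of their type tests had an unadjusted p under 0.05. The counts moved with single libraries, to 7 in classes and 15 in types without aged AAV-EGFP mouse 1, to 1 in classes without young mouse 1 and to 1 in types without young mouse 3 or aged AAV-EGFP mouse 3. Differences between classes or types were not tested against each other.

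Grik3 was called lower with age in excitatory neurons. Its level there was 248, 181 and 192 CPM in the 3 young mice, 152, 163 and 148 in the aged AAV-EGFP mice and 184, 176 and 143 in the aged AAV-B3GNT3 mice. All aged AAV-EGFP mice lay below all young mice. The fold change was -0.45 ± 0.13 (edgeR adjusted p = 0.042), in a class with 14.8% of genes called. Leaving out any 1 of the young or aged AAV-EGFP mice, or aged AAV-B3GNT3 mouse 1, ended the call (edgeR adjusted p from 0.0554 to 0.139). The make-up of the class moved as well. Deep intratelencephalic neurons were 7.89 to 9.41% of its nuclei in young mice, 12.82 to 14.4% in aged AAV-EGFP mice and 7.22 to 10.0% in aged AAV-B3GNT3 mice, and layer 6b neurons were 4.54 to 6.37%, 2.45 to 5.04% and 3.79 to 4.27%.

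Within neuron types, Grik3 was called lower with age in 3 of the 14 types where it was tested. In deep intratelencephalic neurons it was 383, 273 and 299 CPM in young mice and 213, 181 and 136 in aged AAV-EGFP mice, with 239, 248 and 229 in aged AAV-B3GNT3 mice. The aged AAV-EGFP and young mice did not overlap, and the fold change was -0.82 ± 0.17 (edgeR adjusted p = 0.0091; 6.55% of genes called). This call held without each of the 9 mice in turn. In middle-layer neurons the values were 169, 121 and 145 CPM against 105, 91.7 and 92.7, with 119.6, 162 and 100.1 in aged AAV-B3GNT3 mice (-0.58 ± 0.16, edgeR adjusted p = 0.032; 10.9% called). It was lost without young mouse 1 or 3 or aged AAV-EGFP mouse 2 or 3 (edgeR adjusted p from 0.0887 to 0.105). In CA1 neurons the level was far lower, 19.98, 12.4 and 19.3 CPM against 2.66, 4.16 and 4.01, from 33, 23 and 25 UMIs against 4, 9 and 3 (-2.10 ± 0.53, edgeR adjusted p = 0.046; 1.76% called). That call was lost without any 1 young or aged AAV-EGFP mouse or aged AAV-B3GNT3 mouse 1 (edgeR adjusted p from 0.0561 to 0.218).

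Grik3 had a negative fold change in the other 11 types too, none of which was called. Layer 6 corticothalamic neurons (-0.39 ± 0.14, edgeR adjusted p = 0.084), layer 6b neurons (-0.39 ± 0.15, 0.19) and near-projecting neurons (-0.39 ± 0.14, 0.19), the types with the most Grik3, were among them, and indirect-pathway striatal neurons were closest to 0 (-0.05 ± 0.16, 0.89). The median over its 14 types was -0.44, while the median of all genes lay between -0.01 and 0.02 in each type. All 14 comparisons use the same 6 libraries and are not independent.

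Grik5 was also called lower with age in excitatory neurons. The values were 144, 137 and 154 CPM in young mice, 119, 109 and 123 in aged AAV-EGFP mice and 158, 171 and 135 in aged AAV-B3GNT3 mice, so that the aged AAV-EGFP mice were below both other groups. The fold change with age was -0.35 ± 0.10 (edgeR adjusted p = 0.036). The call was lost without any 1 young mouse, aged AAV-EGFP mouse 2 or 3 or aged AAV-B3GNT3 mouse 1 (edgeR adjusted p from 0.0568 to 0.140). It was also lost with the replicate number as a block (0.054). In upper-layer neurons Grik5 was 134, 131 and 128 CPM against 108, 91.0 and 94.2, with 142, 146 and 123 in aged AAV-B3GNT3 mice (-0.45 ± 0.12, edgeR adjusted p = 0.035; 9.03% of genes called). In layer 6 corticothalamic neurons it was 162, 183 and 195 against 137, 135 and 148, with 178, 190.4 and 168 (-0.36 ± 0.12, edgeR adjusted p = 0.046; 12.2% called). Each of these type calls held in 3 of 9 fits with 1 mouse left out: the first without aged AAV-EGFP mouse 1 or aged AAV-B3GNT3 mouse 2 or 3, the second without young mouse 1 or aged AAV-B3GNT3 mouse 2 or 3. Their edgeR adjusted p was otherwise 0.0541 to 0.115 and 0.0556 to 0.198. Both calls were also lost with the 2 compared groups alone (0.060 and 0.059), and the second with no filter on low counts (0.064) and with depth as a covariate (0.051). Middle-layer neurons missed the threshold (-0.33 ± 0.10, 0.053). The fold change with age was negative in 16 of 16 types, as it was for 11.5% of the genes tested in all of them, with a median of -0.13, and closest to 0 in near-projecting neurons (-0.02 ± 0.22).

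Grik1 was called lower with age in 1 type, the indirect-pathway striatal neurons, where its level is close to the floor. It had 15.5, 11.1 and 16.03 CPM in young mice and 1.43, 5.23 and 3.16 in aged AAV-EGFP mice, from 21, 23 and 9 UMIs against 2, 9 and 9, and 7.91, 12.6 and 8.89 CPM in aged AAV-B3GNT3 mice (-1.99 ± 0.42, edgeR adjusted p = 0.021; 2.72% of genes called). It was lost without young mouse 1 or 3 or aged AAV-EGFP mouse 3 (edgeR adjusted p from 0.0625 to 0.158). Grik1 is abundant in Lamp5 interneurons, which had -0.08 ± 0.15 (0.85), in Sst interneurons, 0.17 ± 0.16 (0.61), and in near-projecting neurons, -0.32 ± 0.16 (0.35). In the inhibitory class as a whole, where its class level was highest, Grik1 ranged from 577 to 1029 CPM in young, 501 to 947 in aged AAV-EGFP and 608 to 840.1 in aged AAV-B3GNT3 mice. The groups overlapped (-0.05 ± 0.25 with age, edgeR adjusted p = 0.93). Grik4 in oligodendrocyte precursors likewise overlapped, with 519, 331 and 418 CPM in young, 391, 465 and 456 in aged AAV-EGFP and 507, 488 and 449.9 in aged AAV-B3GNT3 mice (0.05 ± 0.16 with age, edgeR adjusted p = 0.90). In CA2 or CA3 neurons, its main site, Grik4 gave -0.08 ± 0.20 with age (0.92).

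**Figure D2:**
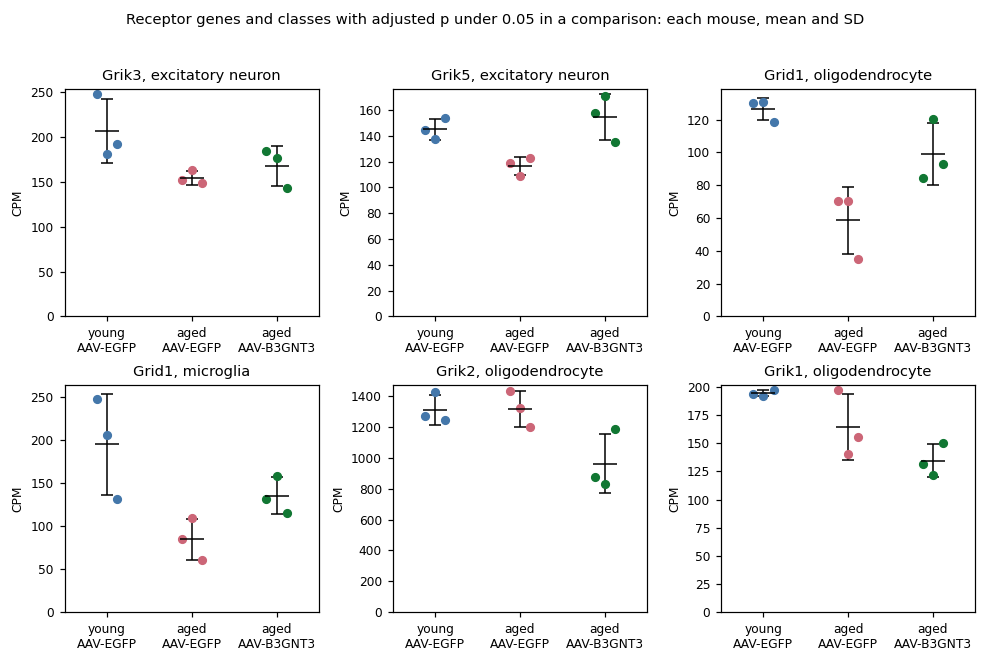
CPM of the receptor genes in the 6 gene and class pairs with an adjusted p under 0.05 in one of the 3 group comparisons; points are mice, the long bar is the mean of 3 and the error bar the SD, and axes start at 0. In the 4 pairs called with age (Grik3 and Grik5 in excitatory neurons, Grid1 in oligodendrocytes and microglia) each aged AAV-EGFP mouse lies below each young mouse. These pairs were picked by their calls on the same counts, so the separation adds no support.

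Grid1 was called lower with age in 2 non-neuronal classes and was called in no neuron type. Its fold change with age was positive in 12 of 16 neuron types and negative in 4, with a median of 0.04. In 1 of the 16, the Pvalb interneurons, the 2 groups did not overlap. There the mean was 429 ± 12.6 CPM in young and 338 ± 18.8 CPM in aged AAV-EGFP mice (-0.26 ± 0.12, edgeR adjusted p = 0.26). With age the groups also did not overlap in 9 types for Grik3, 7 for Grik5 and 5 for Grik1, all lower, and in 3 for Grik2, all higher. The share of all gene tests that separate with age was not computed, so these counts have no reference. In oligodendrocytes Grid1 was 130.4, 131 and 118 CPM in young mice, 70.2, 70.6 and 35.1 in aged AAV-EGFP mice and 84.4, 120.5 and 92.9 in aged AAV-B3GNT3 mice. Each aged AAV-EGFP mouse lay below every mouse of the other groups, with a fold change with age of -1.10 ± 0.23 (edgeR adjusted p = 0.0068; 20.9% of genes called) that held without each mouse in turn. In microglia it was 248, 206 and 132 CPM, then 85.0, 109 and 61.4, then 132, 159 and 116, from 26 to 117 UMIs per mouse (-1.27 ± 0.26, edgeR adjusted p = 0.0083; 8.27% called). The microglia call was lost without young mouse 1 (-1.06, edgeR adjusted p = 0.058), with no doublet removal (-0.17, 0.69), with no upper limit on genes (-0.74, 0.28) and with finer clusters (-0.93, 0.15). In the last 2 settings the microglia class was not the same. Beside clusters of 1925 and 1923 nuclei, a second cluster of 317 and 305 nuclei, with Mrc1 and F13a1 as its top genes, also took that name. Its part in the lost calls was not tested.

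The oligodendrocytes of the groups lay in different clusters. At resolution 1.0 the class split into 3 clusters, here called A, B and C. Cluster A held 61.6 to 71.1% of the oligodendrocytes of young mice, 8.02 to 29.0% of those of aged AAV-EGFP mice and 40.2 to 60.03% of those of aged AAV-B3GNT3 mice, and cluster B held 9.50 to 13.5%, 37.8 to 66.03% and 9.78 to 50.3%. Nearly all of the rest lay in cluster C. Within cluster A, Grid1 was 133, 126 and 119 CPM in young mice and 67.6, 66.7 and 43.7 in aged AAV-EGFP mice. Within B it was 107, 83.8 and 75.4 against 36.8, 57.9 and 28.8, and within C 158, 168 and 192 against 141, 92.1 and 59.1. The aged AAV-EGFP mice lay below the young mice in each of the 3 clusters, from 13 to 143 UMIs per aged mouse. These values were looked at after the results were known and were not tested. The share of all genes that separate in this way within the clusters was not computed.

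Neuronal RNA moved with Grid1 in the same nuclei. The 7 neuronal genes summed to 2751, 2892 and 2455 CPM in the oligodendrocytes of young mice, 1882, 1695 and 1157 in those of aged AAV-EGFP mice and 2156, 2856 and 2255 in those of aged AAV-B3GNT3 mice. In microglia they summed to 3453 to 4277, 1493 to 3273 and 3094 to 3269 CPM. In both classes the group means lie in the order of those of Grid1. With an estimate of free RNA subtracted, Grid1 no longer had enough counts to be tested in either class. In oligodendrocytes, genes spanning 300 kb or more also had a median fold change with age of -0.60 (553 genes), and in microglia of -0.73 (510 genes). In neurons, where its level is 616 ± 42.9 (excitatory) and 716 ± 44.4 CPM (inhibitory), Grid1 had 0.00 ± 0.12 and 0.02 ± 0.12 with age (edgeR adjusted p = 0.99 and 0.94), and in oligodendrocyte precursors -0.11 ± 0.14 (0.72). The part of neuronal RNA in the 2 calls was not tested.

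**Figure D3:**
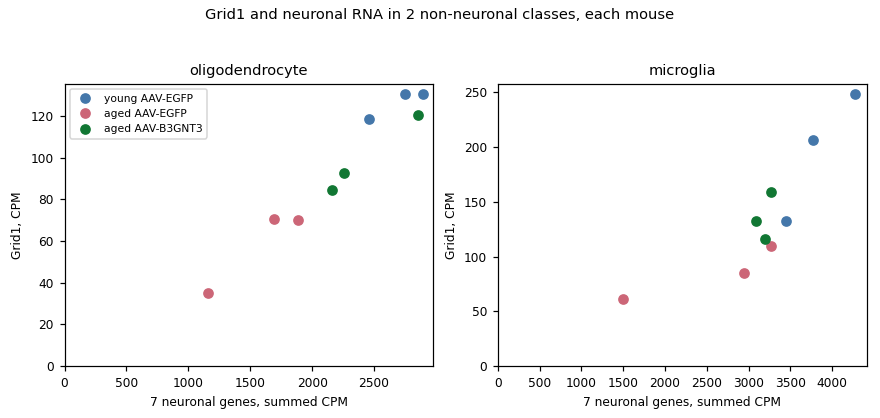
Grid1 (CPM, vertical axis) against the summed CPM of 7 neuronal genes (horizontal axis) in the oligodendrocytes and the microglia of each of the 9 mice, coloured by group, both axes from 0. In oligodendrocytes the aged AAV-EGFP mice, at 35.1 to 70.6 CPM of Grid1, are also the 3 lowest in neuronal RNA, at 1157 to 1882 CPM.

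The effect of brain endothelial B3GNT3 was read from aged AAV-B3GNT3 against aged AAV-EGFP mice, which shares the aged AAV-EGFP libraries with the test of age. Of 40 class tests 1 was called, where 2.78% of all gene tests were, and of 93 type tests 1, where 0.771% were. Both concern Grik2, and both were lower after AAV-B3GNT3. Without aged AAV-EGFP mouse 1 or 3 the type count rose to 6, and without aged AAV-EGFP mouse 2 or aged AAV-B3GNT3 mouse 1 or 2 both counts were 0. In oligodendrocytes Grik2 was 1433, 1319 and 1196 CPM in aged AAV-EGFP mice and 875, 828 and 1182 in aged AAV-B3GNT3 mice, with 1266, 1421 and 1243 in young mice. The treated mice were lower than both other groups, though the nearest mice of the 2 aged groups (1196 and 1182 CPM) were close, with a fold change of -0.55 ± 0.15 (edgeR adjusted p = 0.044; 7.93% of genes called). The call held in 2 of 9 fits with 1 mouse left out (without aged AAV-EGFP mouse 3 or aged AAV-B3GNT3 mouse 3) and was lost in the other 7 (edgeR adjusted p from 0.0617 to 0.225). It was also lost with median UMIs per nucleus as a covariate (-0.39, 0.25), with the replicate number as a block (0.056), with the 2 compared groups alone (0.079), with no upper limit on genes (0.057), with finer clusters (0.064) and with free RNA subtracted (0.12). Within the 3 oligodendrocyte clusters, whose shares differ between the groups as given above, Grik2 overlapped between the aged groups in A (1306, 1108 and 981 CPM against 889, 837 and 1198 in treated mice) and did not in B (1460, 1278 and 1178 against 861, 785 and 1160) or C (1508, 1456 and 1343 against 947, 833 and 1261).

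Pvalb interneurons, fast-spiking cells that inhibit the cell bodies of pyramidal neurons, carried the other call. Their Grik2 was 1946, 2356 and 1981 CPM in aged AAV-EGFP mice and 1504, 1427 and 1697 in aged AAV-B3GNT3 mice, without overlap, and 1622, 1647 and 1853 in young mice (-0.59 ± 0.13, edgeR adjusted p = 0.039; 1.19% of genes called). It was lost without young mouse 3, aged AAV-EGFP mouse 2 or aged AAV-B3GNT3 mouse 1 or 2 (edgeR adjusted p from 0.0644 to 0.230), with depth as a covariate (-0.45, 0.31) and with the replicate number as a block (0.055).

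Grik2 had a negative fold change after AAV-B3GNT3 in 16 of 16 neuron types, with a median of -0.46 and a range from -0.62 (direct-pathway striatal) to -0.16 (layer 6b), 13 of them at an unadjusted p under 0.05 but 1 called. Over all genes, 14.7% of type tests had an unadjusted p under 0.05, and 9.89% of the 4945 genes tested in all 16 types had a negative fold change in each. In 11 of the 16 types each treated mouse was below each aged AAV-EGFP mouse, which held for 5.07% of all gene tests. Examples are Lamp5 interneurons (-0.56 ± 0.15, edgeR adjusted p = 0.076), where its level was highest, and dentate granule neurons (-0.55 ± 0.15, 0.20). The direction was the same in the inhibitory (-0.57 ± 0.17, 0.12) and excitatory class (-0.41 ± 0.16, 0.15) and in oligodendrocyte precursors (-0.41 ± 0.16, 0.30), and near 0 in astrocytes (-0.11 ± 0.17, 0.76). In the other 2 of 7 classes, microglia and brain endothelial cells, the fold change was positive (at most 0.14) and not called. With age, Grik2 had a positive fold change in 15 of 16 types (median 0.20), of which 0 were called by edgeR and 2 had an unadjusted p under 0.05, where 19.9% of all type tests did. Genes that span 300 kb or more, as Grik2 does, had a median fold change after AAV-B3GNT3 of -0.21 in inhibitory neurons (573 genes) and -0.19 in excitatory neurons (590 genes), but 0.34 in oligodendrocytes (553 genes). The part of gene span in these values was not tested.

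Grik5 had a positive fold change after AAV-B3GNT3 in 16 of 16 neuron types and 6 of 6 classes, and Grik3 in 14 of 14 types, with none called by edgeR. Each treated mouse was above each aged AAV-EGFP mouse in 11 of 16 types for Grik5 and in 7 of 14 for Grik3, which held for 16.7% of all gene tests. A positive fold change in all 16 types was found in 9.28% of the genes tested in all of them. The 16 values of Grik5 had a median of 0.23 and ran from 0.08 to 0.45, 6 of them at an unadjusted p under 0.05, the closest to the threshold in middle-layer neurons (0.38 ± 0.10, edgeR adjusted p = 0.072). Genes that span 25 to 100 kb, as Grik5 does, had median fold changes after AAV-B3GNT3 of 0.09 in excitatory and 0.07 in inhibitory neurons. With age their medians were -0.05 in both classes (5794 and 5174 genes). The part of gene span in the values of Grik5 was not tested. The 14 values of Grik3 had a median of 0.27 and ran from 0.04 to 1.69, with 3 at an unadjusted p under 0.05, and in the excitatory class Grik3 had -0.02 ± 0.13 (0.95). These values and the negative ones with age use the same 3 aged AAV-EGFP libraries, so the 2 sets of signs are not independent.

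Grid1 showed no called difference after AAV-B3GNT3. Its fold change was 0.66 ± 0.23 in oligodendrocytes (edgeR adjusted p = 0.093) and 0.66 ± 0.26 in microglia (0.27). Neuronal RNA was higher in treated than in aged AAV-EGFP mice in oligodendrocytes without overlap, whereas in microglia the groups overlapped (means of 3186 and 2571 CPM). In neuron types it was negative in 14 of 16 (median -0.18), closest to the threshold in deep intratelencephalic neurons (-0.50 ± 0.12, 0.054). Grik1 in the inhibitory class had -0.30 ± 0.25 (edgeR adjusted p = 0.56) and Grik4 in oligodendrocyte precursors 0.05 ± 0.16 (0.94).

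**Figure D4:**
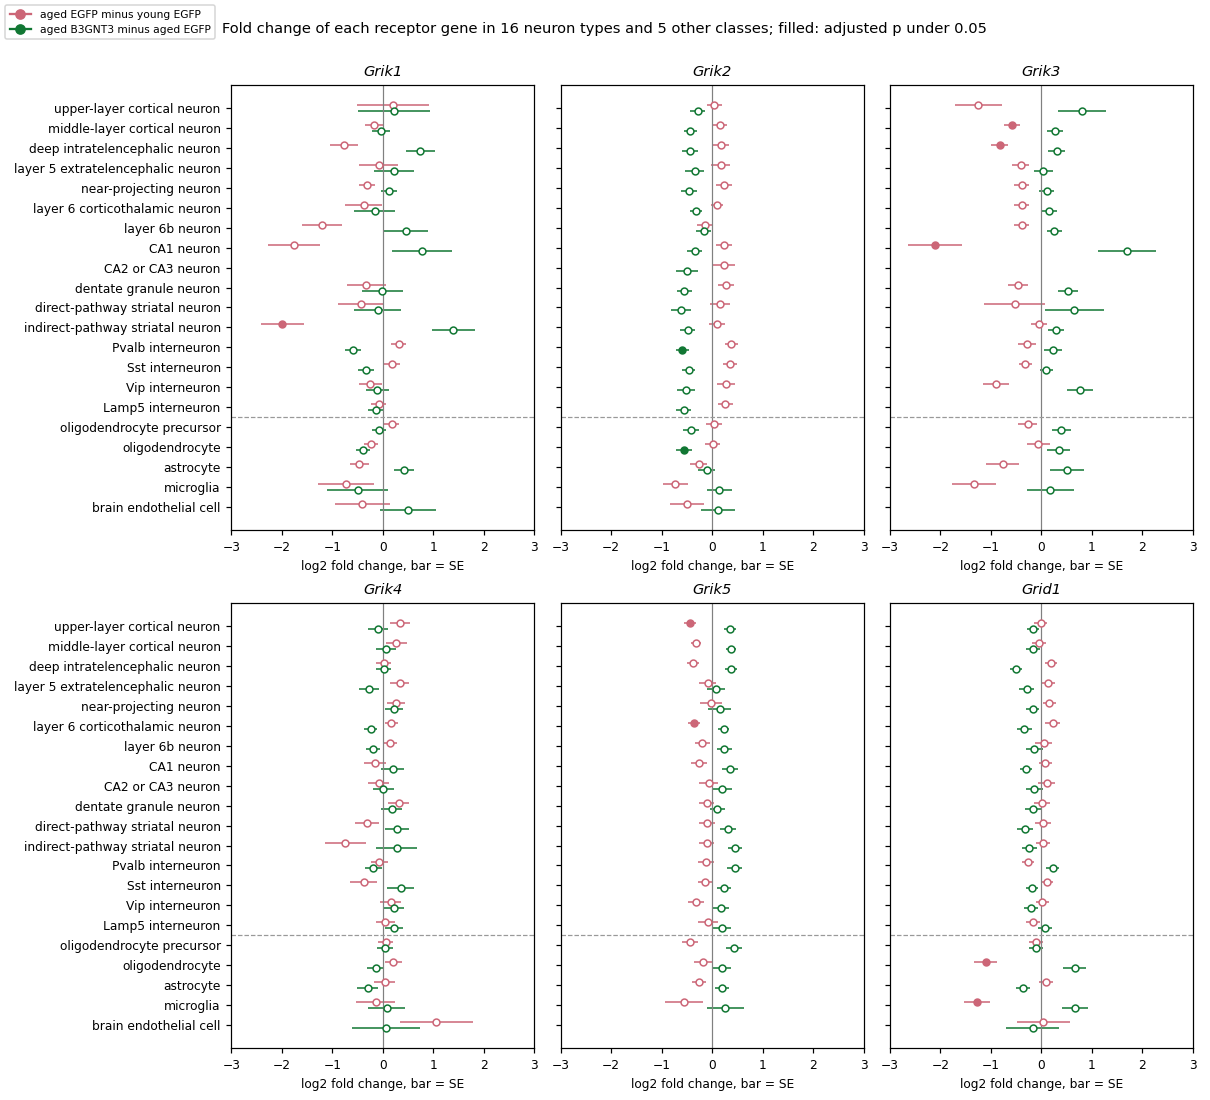
Log2 fold change of each receptor gene (points; bars are SE) in 16 neuron types and 5 other classes, for aged against young AAV-EGFP mice and for aged AAV-B3GNT3 against aged AAV-EGFP mice; filled points have an adjusted p under 0.05, and genes with too few counts are left blank. Grik3 and Grik5 lie left of 0 with age in every type tested, and Grik2 lies left of 0 after AAV-B3GNT3 in every type, with a range from -0.62 to -0.16.

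Aged AAV-B3GNT3 mice were also set against young mice, which joins age and treatment. In the classes 1 of 40 tests was called, where 1.61% of all gene tests were. Grik1 in oligodendrocytes was 194, 192 and 197 CPM in young mice, 198, 140.5 and 156 in aged AAV-EGFP mice and 131, 122 and 151 in aged AAV-B3GNT3 mice. The treated mice lay below all young mice (-0.63 ± 0.14, edgeR adjusted p = 0.042; 1.5% of genes called). Within clusters A, B and C the treated mice were also below all young mice, at 116, 126 and 167 CPM against 195, 206 and 194 in A, where most young oligodendrocytes lay. The count fell to 0 without any 1 young or aged AAV-B3GNT3 mouse or aged AAV-EGFP mouse 2, and with depth as a covariate, at resolution 1.0, with free RNA subtracted and with the replicate number as a block. Neuronal RNA in oligodendrocytes overlapped between these groups (2156 to 2856 against 2455 to 2892 CPM). Neither step alone was called, with -0.24 ± 0.14 for age (0.22) and -0.39 ± 0.14 for treatment (0.097). In the 16 types 0 of 93 tests were called by edgeR, where 0.84% of all gene tests were, and 10 had an unadjusted p under 0.05, where 12.7% of all did.

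Proteins that work with these receptors were read as 2 lists. Of 11 listed kainate partners 10 were measured, and 1 was not analysed here. With age 12 of 59 class tests of these partners were called lower and 0 higher, where 10% of all gene tests were called, and in types 13 of 134 lower and 0 higher, where 3.91% were. The type calls were of Neto2, which encodes an auxiliary subunit, and of the scaffold genes Grip1 and Dlg4. Neto1, the other auxiliary subunit gene, was called with age in astrocytes, oligodendrocytes and microglia and in no neuron class or type. None was called with age in the inhibitory class, oligodendrocyte precursors or brain endothelial cells. Among the interneuron types, Neto2 was called lower with age in Vip interneurons. Neto2 fell in excitatory neurons (-0.77 ± 0.16, edgeR adjusted p = 0.012), most clearly in middle-layer neurons (-1.26 ± 0.15, 0.0015). Dlg4, the scaffold PSD-95, fell in excitatory neurons (-0.88 ± 0.14, 0.0056) and in deep intratelencephalic neurons (-1.06 ± 0.16, 0.0021). In oligodendrocytes, where 20.9% of genes were called, 5 of 9 were lower, namely Neto1 (-1.37 ± 0.26, 0.0050), Neto2, Grip1 (-1.49 ± 0.19, 0.0025), Dlg4 and Adarb1, which encodes an RNA-editing enzyme that acts on glutamate receptor transcripts. In astrocytes (11.5% of genes called) Neto1, Neto2 and Grip1 were lower, and in microglia (8.27%) Neto1 and Grip1. Neuronal RNA was lower in the oligodendrocytes, astrocytes and microglia of aged AAV-EGFP mice than of young mice, without overlap (722 to 1207 against 1943 to 2061 CPM in astrocytes), and its part in these was not tested. After AAV-B3GNT3, 2 of 59 class tests were called (2.78% of all), both higher: Grip1 in oligodendrocytes (1.11 ± 0.19, 0.0088) and Neto1 in astrocytes (0.88 ± 0.20, 0.030). Neuronal RNA was also higher in treated than in aged AAV-EGFP mice in both classes, without overlap (2156 to 2856 against 1157 to 1882 CPM and 1468 to 1974 against 722 to 1207 CPM), and its part was not tested. In types 0 of 134 were called by edgeR. Against young mice, Neto1, Neto2, Grip1 and Dlg4 were lower in the excitatory neurons of aged AAV-B3GNT3 mice and Neto2 in their astrocytes, 5 of 59 class tests where 1.61% of all gene tests were called. In types 10 of 134 were lower and 0 higher, where 0.84% of all were called.

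The delta receptor partners were 7 cerebellin and neurexin genes. With age 7 of 27 class tests (10% of all gene tests) and 5 of 58 type tests (3.91% of all) were called, all lower. Nrxn2 fell in excitatory neurons (-0.72 ± 0.12, edgeR adjusted p = 0.0068) and in 4 of their types, most in upper-layer neurons (-0.96 ± 0.12, 0.0015). Cbln2, which encodes a cerebellin that bridges neurexin to GluD1, fell in excitatory neurons (-0.89 ± 0.23, 0.027) and in upper-layer neurons (-1.32 ± 0.31, 0.024), at a class level of 6.40 CPM. Nrxn3 was lower in oligodendrocytes (-1.21 ± 0.19, 0.0028), and again in microglia and astrocytes, the classes where neuronal RNA also moved. After AAV-B3GNT3, Nrxn3 rose in oligodendrocytes (0.76 ± 0.19, 0.029) and astrocytes (0.79 ± 0.19, 0.033).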

How the data were processed

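The authors aligned reads to the mouse genome (GRCm38, mm10) with Cell Ranger (version 4.0.0 per the labels, 7.2.0 per the file headers) and deposited raw UMI counts per gene and nucleus for 9 libraries. Their doublet and free-RNA removal, SCTransform and integration are not in these matrices, and whether intronic reads were counted was not determined. Nuclei passed with 200 to 5000 genes and a mitochondrial share of up to 10%, and doublets were marked from simulated doublets at a preset rate proportional to the number of barcodes, which is no measured rate. Log-scaled counts of 2000 variable genes, without the receptor and partner genes, gave 15 principal components (30 for neurons) and 20 neighbours, clustered by Leiden at resolution 0.3 (1.0 for neuron types) without integration. A name needed 3 markers at 2 times the median cluster and in 10% of nuclei. Neuron clusters with a rival name at 75% of the score, or under 50% of the best score for the name, stayed unnamed, limits set after the clusters were seen.

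Counts were summed per mouse and class or type, with at least 10 nuclei in each mouse. The nuclei of a mouse share its library, so the mouse is the replicate (n = 3 per group), as the labels give 1 library per mouse. Genes passed filterByExpr at a minimum count of 10. After TMM scaling, edgeR 4.0.16 (R 4.3.3) fitted all 9 mice together and gave 2-sided quasi-likelihood tests. Alternatives used DESeq2 1.42.0, other normalization, filters, clustering, covariates, subtraction of free RNA and left-out mice. CPM values in the text divide by the total count of each sum, so fold changes on TMM scaling need not equal their ratios. The test was checked on simulated data. The members and lists were chosen with earlier results of these data known. Named genes were the 6 members throughout, partner genes past the threshold and the 3 genes most like each member, some of which are not reported here.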

Additional observations from a re-analysis of the deposited data

Results flagged for a closer look

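Grid1 after AAV-B3GNT3 pointed in different directions in different classes. In oligodendrocytes the mean of the aged AAV-B3GNT3 mice was 1.69 times that of the aged AAV-EGFP mice, and in microglia 1.59 times, with each treated mouse above each aged AAV-EGFP mouse. In inhibitory neurons the ratio was 0.942 and in astrocytes 0.847, with each treated mouse below each aged AAV-EGFP mouse. Such separation was the rule that flagged Grid1, among 6 genes and 7 classes, so it is no evidence by itself. The share of all genes that separate in this way was not computed. The difference between the classes was not tested, and none of the 4 fold changes was called by edgeR (adjusted p = 0.093, 0.27, 0.33 and 0.14). The 7 neuronal genes summed to 2156 to 2856 CPM in the oligodendrocytes of treated mice against 1157 to 1882 in aged AAV-EGFP mice, and to 1468 to 1974 against 722 to 1207 CPM in astrocytes. Neuronal RNA was thus higher in treated mice in both classes, while Grid1 was higher in the first and lower in the second. Its part was not tested.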

How the results depend on the processing

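For age, the 4 class calls became 2 with free RNA subtracted, since Grid1 then failed the count filter, and 6 with no filter on low counts, and the 6 type calls became 10 with that filter off. For AAV-B3GNT3, the single class call became 2 with DESeq2 and 3 with no count filter. It became 0 with the 2 compared groups alone, with depth as a covariate, with no upper limit on genes, at resolution 1.0 and with free RNA subtracted. The single type call became 5 with DESeq2, 9 with no filter and 0 with depth. For aged AAV-B3GNT3 against young mice, the single call became 3 with DESeq2, 4 with no filter, 2 with 2 groups and 0 with depth, resolution 1.0 or free RNA subtracted. With 1 mouse left out, the counts ranged from 1 to 7 and 0 to 2 for age and treatment in classes, 0 to 2 against young mice, and 1 to 15 and 0 to 6 in types. Deviations of same-numbered mice correlated between -0.32 and 0.41 in excitatory neurons, and between 0.22 and 0.31 for the mice numbered 2 in brain endothelial cells. Whether mice of the same number shared a batch is not known. With the replicate number as a block, the treatment counts and the count against young mice were 0, and Grik5 in excitatory neurons with age had -0.35 (edgeR adjusted p = 0.054). Of the receptor-gene fold changes recomputed, none past the threshold reversed, but 3 that were near 0 and not called did. Grik1 in inhibitory neurons with age (-0.05) was 0.10 without striatal nuclei and -0.25 to 0.23 with 1 mouse left out. Grik4 in oligodendrocyte precursors was -0.0100 with no doublet removal, -0.018 with no upper limit on genes and -0.10 to 0.19 with 1 mouse left out for age (0.05), and -0.086 with depth, -0.016 at resolution 1.0 and -0.012 to 0.12 with 1 mouse left out for treatment (0.05). Those of partner genes and of Grik1 in oligodendrocytes against young mice were not recomputed one by one. Leaving striatal neurons out of the inhibitory class was added after the clusters were seen and changed no call. The causes of these changes were not tested. Depth limits Grik3 in CA1 neurons and Grik1 in indirect-pathway striatal neurons, with 2 to 33 UMIs per mouse.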

Other observations

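Levels of the kainate receptor partners across types were not part of a comparison. Neto1, an auxiliary subunit gene, had its highest neuronal mean in Sst interneurons (819.6 CPM over the 9 mice) and Neto2 in near-projecting neurons (543 CPM), where Neto1 was low (43.3 CPM). Near-projecting neurons were also among the highest types for Grik1, Grik3 and Grid1. Grip1, which encodes a scaffold protein with PDZ domains, had 7633 CPM in Vip, 5470 in Pvalb, 5264 in Lamp5 and 5212 in Sst interneurons, against 137 in upper-layer neurons and 205 in deep intratelencephalic neurons. C1ql3, which encodes a secreted partner made by mossy fibres, was highest in dentate granule neurons (143 CPM) and had 5.51 CPM in CA2 or CA3 neurons, where Grik4 was highest.

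Grik1 in upper-layer neurons spread widely within both aged groups. It was 49.6, 43.2 and 35.4 CPM in young mice, 125, 19.4 and 6.73 in aged AAV-EGFP mice and 38.9, 112 and 40.3 in aged AAV-B3GNT3 mice, from 31 to 532 UMIs per mouse. The type joins 2 clusters. In the larger one Grik1 was 4.69 to 15.3 CPM in the 9 mice, and in the smaller one 121 to 328 CPM in 8 mice and 6.50 CPM (1 UMI in 12 nuclei) in aged AAV-EGFP mouse 3. The smaller cluster was 35.1, 8.87 and 3.33% of the type in aged AAV-EGFP mice and 7.66, 31.5 and 27.03% in aged AAV-B3GNT3 mice. The fold changes there were 0.20 ± 0.72 with age and 0.22 ± 0.71 after AAV-B3GNT3 (edgeR adjusted p = 0.88 and 0.91).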
